A study of Mus musculus with 36 samples.

Results

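Antibody transcripts in ligated mouse carotid arteries are described here through 10 genes, chosen by their symbols in the deposited count table: 7 heavy-chain constant regions (Ighm, Ighd, Ighg1, Ighg2b, Ighg2c, Ighg3, Igha), the light-chain constant regions Igkc and Iglc1, and the joining chain Jchain. All 10 were found among 49568 gene symbols, and all 10 passed the filter on low counts, which left 18628 genes. The left carotid was tied off, an operation that stops flow and remodels the vessel wall, and was collected 14 days later. The mice were of the inbred strains 129X1/SvJ, called 129X1 here, and C57BL/6J, called B6. They received either sacubitril/valsartan at 60 mg/kg/day (Sac/val), valsartan alone at 27 mg/kg/day (Val) or vehicle at 2 mL/kg/day, as a therapeutic course of 7 days begun on day 7 or as a prophylactic course of 16 days that started ahead of surgery by 2 days. Valsartan blocks the angiotensin receptor, and sacubitril adds inhibition of the peptidase neprilysin. Every mouse was ligated, so there is no unligated artery among the groups used, and the labels give neither age nor sex. Each of the 12 combinations of strain, regimen and treatment had 3 libraries, which makes 18 libraries per strain and 12 per treatment.

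An antibody is built from paired heavy and light chains, and its class is set by the constant region of the heavy chain. Naive B cells carry IgM, encoded with Ighm, and IgD, encoded with Ighd, at their surface. After activation a B cell can switch to another class by deleting the DNA between Ighm and a downstream constant gene, which gives the IgG subclasses or IgA. Plasma cells then secrete the antibody, and Jchain links IgM and IgA units into polymers. The strains differ at this locus as background knowledge: C57BL/6 carries the b haplotype of the heavy-chain locus, in which the IgG2 gene is Ighg2c, and 129 strains carry the a haplotype with its allele Ighg2a. The reads were aligned to GRCm38, a genome made from C57BL/6J, so a strain difference in RNA and a strain difference in how well reads match the b haplotype cannot be told apart for the heavy-chain genes.

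The heavy-chain genes lie on the minus strand of chromosome 12 in GRCm38, with Ighm at chr12:113418558-113422730 first and Igha at chr12:113254830-113260236 last in the direction of transcription. Igkc is at chr6:70726435-70726966, Iglc1 at chr16:19061618-19062071 and Jchain at chr5:88519809-88527891. The hinge exons of the IgG genes are shown because the hinge is the stretch in which the subclasses differ most, so reads over it can be assigned to a subclass. They were read from the GENCODE M21 transcripts of that build, 5′ to 3′ on the coding strand. Capitals mark in-frame codons of cysteine, the amino acid that forms the bridges between antibody chains.
Ighg1 hinge (chr12:113329844-113329882): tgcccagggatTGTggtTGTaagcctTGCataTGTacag
Ighg2b hinge (chr12:113307261-113307326): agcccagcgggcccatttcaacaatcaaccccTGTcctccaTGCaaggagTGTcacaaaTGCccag
Ighg2c hinge (chr12:113288263-113288325): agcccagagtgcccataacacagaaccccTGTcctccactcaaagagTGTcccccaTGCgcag
Ighg3 hinge (chr12:113360529-113360576): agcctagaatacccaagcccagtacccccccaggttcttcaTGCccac
These exons are 39, 66, 63 and 48 bases long and hold 4, 4, 3 and 1 such codons in the order shown. Few longer stretches are identical between constant genes. Of the 50-base windows of Ighg2c, 5.49% also occur in Ighg2b, against 4.15% of Ighg2b windows, 1.58% of Ighg3 windows and 0.393% of Ighg1 windows that occur in any other constant gene. For Ighm, Ighd, Igha, Igkc, Iglc1 and Jchain the share was 0. How the authors' counting treated reads that fit several genes is not given in the sources used here, so the split between Ighg2b and Ighg2c is the least certain of the counts.

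The tails of the secreted IgM and IgA chains are shown because they carry the cysteine to which the J chain binds, written in capitals.
Ighm secreted tail (chr12:113420870-113420928): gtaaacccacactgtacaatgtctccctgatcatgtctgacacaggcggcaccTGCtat
Igha secreted tail (chr12:113258771-113258829): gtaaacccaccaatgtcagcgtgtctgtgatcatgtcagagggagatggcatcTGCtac
Both tails are 59 bases long, whereas the corresponding coding stretch of each of the 4 IgG genes is 5 bases long and has no such codon.

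Library totals lay between 18.96 M and 28.97 M counts. At that depth 3 counts, used here as the detection floor, correspond to 0.104 to 0.158 CPM, the count scaled to the library total. Arterial smooth muscle was present throughout: its myosin Myh11 ran from 37.1 to 655 CPM. Transcripts of other tissues varied within groups. Rag1, a recombinase of immature lymphocytes, reached 10 CPM in 12 of the 129X1 libraries and 4 of the B6 libraries. Cd79a, a subunit of the B cell receptor, was at or above 10 CPM in 4 libraries, all from 129X1: vehicle prophylactic replicate 2, vehicle therapeutic replicate 2, Val prophylactic replicate 3 and Sac/val therapeutic replicate 1. These 4 libraries had 15.2 to 41.7 CPM of the B cell marker Ms4a1, 20.02 to 57.6 CPM of the follicle chemokine Cxcl13 and 5.23 to 36.95 CPM of Glycam1, a product of lymph node venules. The other 14 libraries of 129X1 had at most 1.75 CPM of Ms4a1, 10.4 CPM of Cxcl13 and 1.19 CPM of Glycam1. These 4 libraries stand apart in their content of B cell transcripts, and the log2 strain differences of the 10 genes that are named below are therefore also given without them. All 4 are from 129X1, so leaving them out removes high values from 1 strain only. B6 libraries rich in antibody transcripts stay in, such as vehicle therapeutic replicate 2, where the 10 genes took 0.171 percent of counts.

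The 10 genes together took 0.00207 to 0.192 percent of a library's counts, with medians of 0.0232 percent in 129X1 and 0.0190 percent in B6. In bulk tissue, fewer B or plasma cells and less RNA per cell cannot be told apart. Ighm ran from 12.5 to 400.5 CPM in 129X1 libraries (median 124) and from 31.7 to 819 CPM in B6 libraries (median 67.0), so it was detected everywhere in both strains. Igkc, the kappa light chain that most mouse antibodies carry, ran from 1.97 to 601 CPM in 129X1 (median 56.8) and from 2.74 to 432 CPM in B6 (median 44.7). Igha, the constant region of mucosal IgA, ran from 0.540 to 558 CPM in 129X1 (median 27.5) and from 1.16 to 223 CPM in B6 (median 45.8). Per kilobase of exon, the medians over all 36 libraries were in the order Igkc (91.3 CPM per kb), Ighm (38.5), Igha (14.2), Jchain (6.40), Iglc1 (3.54), Ighg2c (1.85), Ighg2b (1.73), Ighd (0.762), Ighg1 (0.248) and Ighg3 (0.0683). The ranges of neighbouring genes in this order overlapped.

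**Figure D1:**
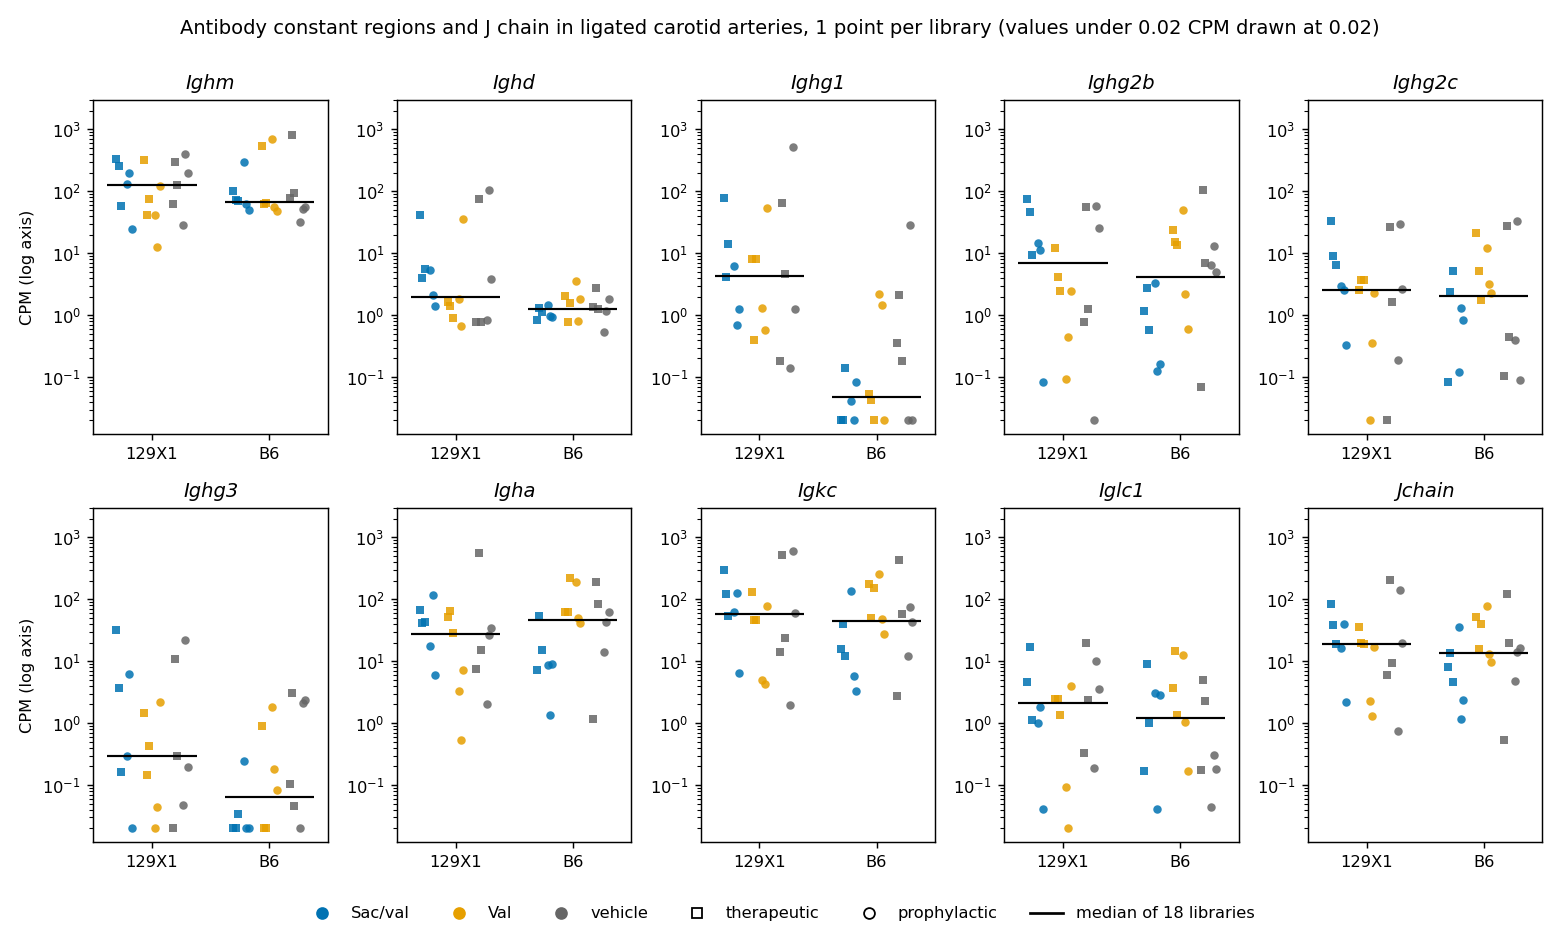
CPM (log axis) of the 10 genes, 1 point per library, with 129X1 to the left of B6; colour gives the treatment, shape the regimen and the line the median of 18 libraries. The Ighg1 points of the strains are the most separated, with medians of 4.34 CPM in 129X1 and 0.0476 CPM in B6, while the Ighm and Igkc points of the strains cover nearly the same range.

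Between strains, 3 of the 10 genes differed when all 6 combinations of treatment and regimen were averaged, and all 3 were higher in 129X1: the IgG1 constant region Ighg1, the IgD constant region Ighd and the IgG3 constant region Ighg3. In this comparison 33.8 percent of all tested genes were called and 16.3 percent were called higher in 129X1 (edgeR quasi-likelihood test, Benjamini-Hochberg adjusted p under 0.05), so the count of 3 is close to the background and the members are described by the size of their differences.

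Ighg1 ran from 0.141 to 525.8 CPM in 129X1 libraries, with a median of 4.34 CPM, and from 0 to 29.0 CPM in B6 libraries, with a median of 0.0476 CPM. Of the 129X1 libraries 0 had no count and 1 had 3 counts or fewer, against 7 and 11 of the B6 libraries. The highest B6 library, vehicle prophylactic replicate 2, held 661 counts and the next 49. All 18 libraries of 129X1 were above the B6 median, 10 were above every B6 library but the highest, and 4 were above every B6 library. The fitted log2 difference was 5.88 (SE 1.12, 95% interval 3.57 to 8.20, edgeR adjusted p = 0.000214). Since many B6 libraries are at or under the floor, its size depends on the small prior count of the fit and is no bound. It was 2.95 (SE 0.85, adjusted p = 0.0110) without the 4 libraries rich in Cd79a, whose Ighg1 values were 53.7 to 525.8 CPM, and the remaining 14 libraries of 129X1 had 0.141 to 14.3 CPM (median 1.28).

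By group, the Sac/val therapeutic libraries had 76.5, 4.08 and 14.3 CPM of Ighg1 in 129X1, against 0, 0 and 0.138 CPM in B6. The Sac/val prophylactic libraries had 6.27, 0.702 and 1.28 CPM in 129X1, against 0.0411, 0 and 0.0823 CPM in B6. Neither pair of groups overlapped. How often other tested genes separate the strains in groups of this size was not counted, so lack of overlap is a description only. The Val therapeutic libraries had 7.96, 0.391 and 7.94 CPM in 129X1, against 0.0527, 0.0425 and 0 CPM in B6, again without overlap. The Val prophylactic libraries had 1.29, 0.585 and 53.7 CPM in 129X1, against 2.23, 1.49 and 0 CPM in B6, and these overlapped. The vehicle therapeutic libraries had 0.185, 65.2 and 4.60 CPM in 129X1, against 0.352, 2.14 and 0.181 CPM in B6. The vehicle prophylactic libraries had 0.141, 525.8 and 1.24 CPM in 129X1, against 0, 29.0 and 0 CPM in B6. Under vehicle the strains overlapped in both regimens, and the high values there came from 1 library of each 129X1 group and from 1 B6 library.

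Ighd, which naive B cells express beside Ighm by alternative splicing, ran from 0.675 to 106 CPM in 129X1 (median 1.995) and from 0.533 to 3.54 CPM in B6 (median 1.28). Of the 129X1 libraries, 8 were above every B6 library, and the rest lay within the B6 range. The log2 difference was 2.82 (SE 0.61, edgeR adjusted p = 0.000757). Without the 4 libraries rich in Cd79a it was 0.43 (SE 0.25, adjusted p = 0.1999), a call that was lost: those 4 libraries had 35.0 to 106 CPM of Ighd and the other 129X1 libraries 0.675 to 5.50 CPM. Ighd varied with Cd79a across the 36 libraries (Spearman rho 0.818, Pearson r 0.966), so leaving out libraries by Cd79a is no independent check of Ighd. Ighg3, the subclass typical of mouse responses to carbohydrate antigens, ran from 0 to 31.9 CPM in 129X1 (median 0.297) and from 0 to 3.01 CPM in B6 (median 0.0647), with 6 and 11 libraries at 3 counts or fewer. Its log2 difference was 3.30 (SE 1.02, edgeR adjusted p = 0.0132), against 0.28 (SE 1.03, adjusted p = 0.886) without the same 4 libraries. The Ighg3 call was also lost on leaving out 129X1 vehicle prophylactic replicate 2 (2.31), Val prophylactic replicate 3 (2.49) or vehicle therapeutic replicate 2 (2.53) alone, with adjusted p of up to 0.287.

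The other 7 genes did not pass in the strain comparison. Ighm differed by -0.03 (95% interval -0.99 to 0.92) and Igha by -0.26 (-1.38 to 0.86). Igkc differed by 0.57 (-0.78 to 1.93), Iglc1, a lambda light chain, by 0.56 (-0.87 to 1.99) and Jchain by 0.57 (-0.69 to 1.82). Ighg2b, the IgG2b constant region, differed by 0.53 (-0.98 to 2.05) and Ighg2c, the IgG2 gene of the b haplotype, by 0.02 (-1.55 to 1.60). The Ighm interval is the narrowest of the 7, and each of the other 6 extends past 1 log2 unit in at least 1 direction. Jchain ran from 0.751 to 203 CPM in 129X1 (median 18.7) and from 0.527 to 122 CPM in B6 (median 13.7). Iglc1 ran from 0 to 19.9 CPM in 129X1 (median 2.09) and from 0.0415 to 14.4 CPM in B6 (median 1.19). Ighg2b ran from 0 to 73.9 CPM in 129X1 (median 6.85) and from 0.0703 to 103 CPM in B6 (median 4.17). For each of these 3 genes the ranges of the strains overlap over most of their extent. Ighg2c ran from 0 to 33.6 CPM in 129X1 (median 2.59) and from 0.0848 to 32.8 CPM in B6 (median 2.02), so the 129X1 libraries gave counts for it although their haplotype carries Ighg2a. Without the 4 libraries rich in Cd79a the differences were below 0 for Ighm (-0.60), Igha (-1.22), Ighg2b (-0.81), Ighg2c (-1.65), Igkc (-1.09), Iglc1 (-0.87) and Jchain (-0.86), and 0 of these 7 passed (edgeR, smallest adjusted p = 0.0913).

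When the mean expression of 16 B cell markers other than immunoglobulins was added to the fit, Ighg1 remained higher in 129X1 (2.77, SE 0.84, edgeR adjusted p = 0.0128) and Ighd did not pass (0.27, adjusted p = 0.231). At equal B cell score 4 genes were called lower in 129X1: Ighg2c (-1.90, adjusted p = 0.0316), Igha (-1.49, adjusted p = 0.0250), Igkc (-1.39, adjusted p = 0.0222) and Jchain (-1.16, adjusted p = 0.0406). The score itself differed by strain, as 12 of its 16 markers were called higher in 129X1 (median log2 difference 2.27). The values with the score therefore cannot separate strain from B cell content. Of all tested genes 5848 were called in that fit, against 6296 without the score. With the mean of 12 plasma cell markers added as well, Ighg1 was the 1 member called (5.46, SE 1.45, edgeR adjusted p = 0.0193). The 4 genes called lower with the B cell score alone did not pass there (edgeR adjusted p of 0.537 and above). In that fit 1328 of all tested genes were called.

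**Figure D2:**
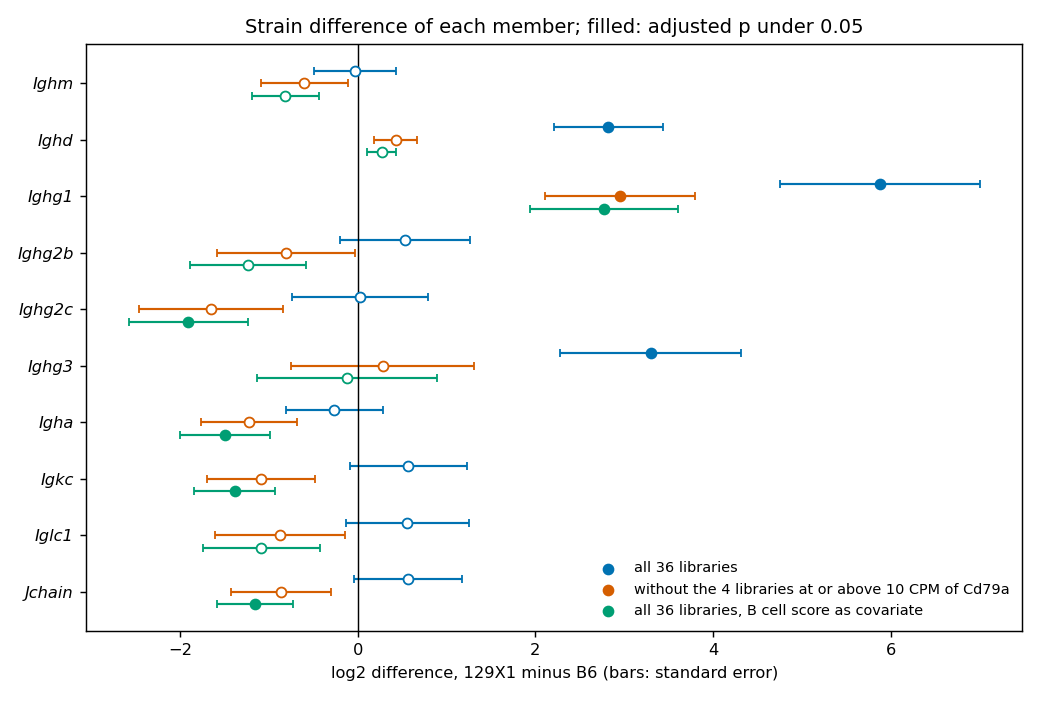
Log2 difference between 129X1 and B6 for each gene (x axis; bars are standard errors), from all 36 libraries, without the 4 libraries rich in Cd79a, and with the B cell score as covariate; filled points have an adjusted p under 0.05. Ighg1 is filled in all 3 fits, whereas Ighd moves to 0.43 and 0.27 and Ighg3 to 0.28 and -0.12 once those libraries are left out or the score is added.

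Within a treatment, 6 libraries per strain were compared. Under Sac/val, Ighg1 (7.46, SE 2.18, edgeR adjusted p = 0.0372) and Ighg3 (6.92, SE 2.11, adjusted p = 0.0481) were higher in 129X1, where 6.26 percent of all genes were called. All 6 B6 Sac/val libraries had at most 4 counts of Ighg1, so this value too depends on the prior count. Without the libraries rich in Cd79a, Ighg1 was 6.59 (adjusted p = 0.0161) and Ighg3 5.55 (adjusted p = 0.0579). On leaving out 1 of the 12 libraries in turn, Ighg1 stayed between 6.62 and 9.19 and was called in 4 of 12 fits, and Ighg3 lay between 5.01 and 8.94 and was called in 2 of 12.

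Under Val, Ighg1 was higher (5.72, SE 1.99, edgeR adjusted p = 0.0413) and Igha lower (-2.83, SE 1.00, adjusted p = 0.0454) in 129X1, with 20.9 percent of all genes called. Igha ran from 0.540 to 63.4 CPM in the 6 Val libraries of 129X1 (median 17.99) and from 41.1 to 223 CPM in those of B6 (median 62.0), so the strains overlapped. Without the 4 libraries rich in Cd79a, of which 1 was a Val library, Ighg1 was 3.49 (adjusted p = 0.1002) and Igha -3.37 (adjusted p = 0.0288). On leaving out 1 library in turn, Ighg1 lay between 3.52 and 6.03 and was called in 3 of 12 fits, and Igha lay between -3.33 and -2.34 and was called in 5 of 12.

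Under vehicle, Ighd alone passed (4.44, SE 1.12, edgeR adjusted p = 0.00955), with 13.5 percent of genes called, and Ighg1 did not (4.47, SE 1.63, adjusted p = 0.0665). The vehicle results turn on few libraries. Ighd was 2.40 (adjusted p = 0.100) without 129X1 vehicle prophylactic replicate 2, 1.96 (adjusted p = 0.150) without 129X1 vehicle therapeutic replicate 2, and -0.10 (adjusted p = 0.906) without the 4 libraries rich in Cd79a. Ighg1 turned to -1.22 (adjusted p = 0.584) without those 4 libraries and to -0.40 (adjusted p = 0.864) with the B cell score in the fit. Without libraries of 10 CPM or more of Rag1, Ighg1 was 0.79 and Ighd 2.77. That fit keeps only replicate 1 of the 129X1 vehicle prophylactic group. Of the 129X1 vehicle therapeutic group it keeps only replicate 2, which is rich in Cd79a. Ighg1 was 0.43 (adjusted p = 0.875) without 129X1 vehicle prophylactic replicate 2, 4.76 (adjusted p = 0.0454) without 129X1 vehicle prophylactic replicate 3 and 9.90 (adjusted p = 0.0134) without B6 vehicle prophylactic replicate 2.

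Within a regimen, with 9 libraries per strain, Ighg1 was higher in 129X1 under therapeutic dosing (7.06, edgeR adjusted p = 0.00511; 13.3 percent of genes called) and under prophylactic dosing (4.71, adjusted p = 0.0229; 21.7 percent called). The therapeutic difference held its call on leaving out any 1 of the 18 libraries (5.95 to 8.21) and was 5.38 (adjusted p = 0.00652) without the libraries rich in Cd79a. The prophylactic difference was 0.52 (adjusted p = 0.824) without them, and its call was lost without 129X1 vehicle prophylactic replicate 2 (2.01), 129X1 Val prophylactic replicate 3 (3.24), 129X1 Sac/val prophylactic replicate 1 (4.24) or B6 Sac/val prophylactic replicate 2 (4.52). Whether the strain difference itself depends on the regimen was not tested. Ighd passed in both regimens (2.58, adjusted p = 0.0446, therapeutic; 3.06, adjusted p = 0.0126, prophylactic). Without the libraries rich in Cd79a it was 0.31 (adjusted p = 0.622) and 0.54 (adjusted p = 0.3195) in the same order, and on leaving out 1 library it was called in 5 of 18 therapeutic fits (0.93 to 2.77) and 16 of 18 prophylactic fits (1.70 to 3.25).

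Isotype balance was described as each gene's share of the summed heavy-chain counts per kilobase. IgM was the main class in both strains: Ighm took 69.4 ± 18.8 percent in 129X1 libraries and 69.3 ± 21.3 percent in B6 libraries (SD, n = 18 each). Igha was the next, at 14.0 ± 13.6 percent in 129X1 and 21.7 ± 17.8 percent in B6, a difference within the spread between libraries (permutation test, two-sided, p = 0.154, adjusted over 7 shares 0.269). The share of Ighd was larger in 129X1, at 4.07 ± 4.25 percent against 0.993 ± 0.546 percent in B6 (permutation p = 0.00025, adjusted p = 0.00175). The Ighd share remained larger without the 4 libraries rich in Cd79a, by 1.22 percentage points (permutation, adjusted p = 0.0251), and did not pass among vehicle libraries alone (3.05 points, exact permutation, adjusted p = 0.636). Ighg1 took 5.67 ± 9.32 percent in 129X1 and 0.837 ± 3.04 percent in B6, with medians of 2.54 and 0.0175 percent, and missed the threshold (difference 4.83 percentage points, permutation p = 0.0157, adjusted p = 0.0548). The Ighg1 difference was 1.35 points without the 4 libraries rich in Cd79a (permutation, adjusted p = 0.474). Ighg2b, Ighg2c and Ighg3 had mean shares of 3.34, 2.96 and 0.625 percent in 129X1 and 2.998, 4.05 and 0.196 percent in B6, and 0 of these 3 passed (adjusted p of 0.195 and above). Of the 6 shares other than Ighd, 0 passed without the 4 libraries (smallest adjusted p = 0.474).

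Single libraries departed far from these means. In 129X1 vehicle prophylactic replicate 2, Ighg1 made up 45.0 percent of 25266 heavy-chain counts (95% exact binomial interval 44.4 to 45.6) and Igha 2.26 percent (2.08 to 2.45). In 129X1 vehicle therapeutic replicate 2, Ighg1 made up 5.99 percent of 24043 counts (5.69 to 6.30) and Igha 51.3 percent (50.6 to 51.9). These 2 libraries, with 43.1 and 34.0 CPM of Cd79a, were both rich in B cell transcripts and differed in class. In 129X1 Val prophylactic replicate 3, another of the 4, Ighd made up 15.6 percent of 5200 counts (14.6 to 16.6) and Ighg1 23.9 percent (22.8 to 25.1). In B6 vehicle prophylactic replicate 2, Ighg1 made up 16.7 percent of 3955 counts (15.6 to 17.9) and Ighg2c 18.9 percent (17.6 to 20.1). In B6 Val therapeutic replicate 3, Igha made up 73.3 percent of 7040 counts (72.2 to 74.3) and Ighg1 and Ighg3 had no count (upper bound of the interval 0.0524 percent). The intervals cover counting error only.

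**Figure D3:**
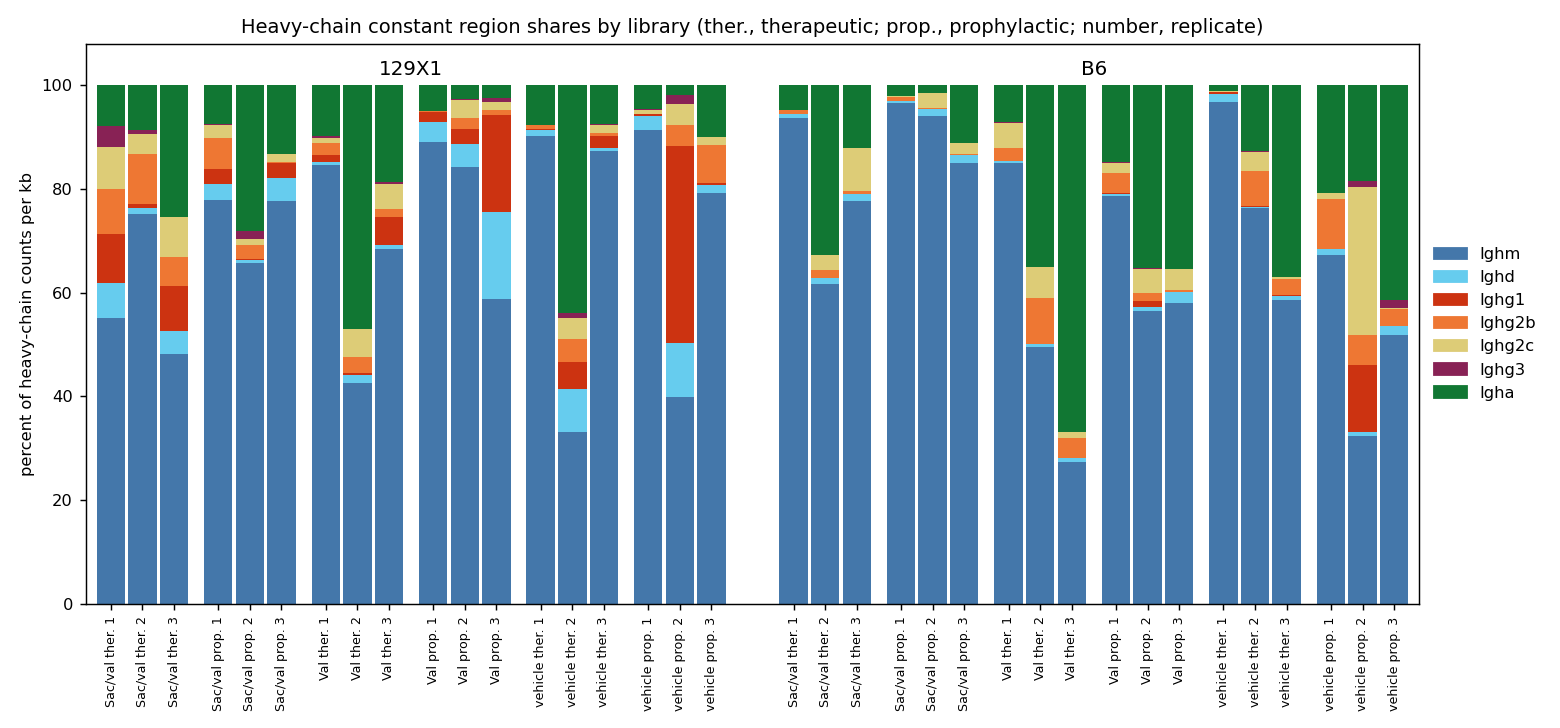
Share of each heavy-chain constant region in the summed heavy-chain counts per kilobase (y axis, percent), 1 bar per library, 129X1 on the left and B6 on the right. Ighm is the largest segment in most bars, Ighg1 reaches 38.0 percent in a 129X1 library and 13.0 percent in a B6 library, and Igha reaches 46.9 percent in 129X1 and 66.9 percent in B6.

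Among the IgG subclasses the leading gene varied between libraries. Of the 17 libraries of 129X1 with at least 10 IgG counts, Ighg1 led in 9, Ighg2b in 6 and Ighg2c in 2, per kilobase. Ighg1 led in all 4 libraries rich in Cd79a, and of the other 13 Ighg2b led in 6, Ighg1 in 5 and Ighg2c in 2. Of the 18 libraries of B6, Ighg2b led in 9, Ighg2c in 8 and Ighg1 in 1. That 1 library, vehicle therapeutic replicate 1, held 18 IgG counts, 10 of them Ighg1, and has the highest Ighg1 share of B6. Few counts also lie behind the highest Ighg1 share in 129X1, 28 of 30 in Val prophylactic replicate 1. The leads depend on the length used: Ighg2c has 1326 exon bases, the other IgG genes 2512 to 2678. Shortest transcripts have 1076 to 1114 bases. By plain counts Ighg2b was above Ighg2c in B6 Val therapeutic replicate 1 (442 and 403) and Sac/val therapeutic replicate 2 (58 and 49). Ighg2c was also behind in 129X1 Val prophylactic replicate 2 (8, Ighg1 13) and Val therapeutic replicate 2 (75, Ighg2b 86). The median Ighg1 share of IgG was 33.0 percent in 129X1 (range 3.04 to 93.5; 30.1 percent in the 13) and 0.637 percent in B6 (range 0 to 47.9), and Ighg3 led in 0 libraries. These counts are a description without a test, and the share of Ighg2c in 129X1 depends on how reads of the a haplotype aligned. Ighe, the IgE constant gene, is not among the 10; B cells can reach it by way of IgG1. It was detected mainly in 129X1, at up to 55.2 CPM against at most 3.36 CPM in B6, where 14 of 18 libraries had no count. The 4 libraries of 129X1 rich in Cd79a held 59 to 1194 counts of Ighe. The others of 129X1 held at most 16, fewer than the 77 of B6 vehicle therapeutic replicate 2. The highest value was that of 129X1 vehicle prophylactic replicate 2, the library highest in Ighg1.

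For the light chains, Igkc made up 95.7 ± 3.80 percent of Igkc and Iglc1 per kilobase in 129X1 and 92.5 ± 12.6 percent in B6 (SD, n = 18 each; permutation p = 0.353). The lowest B6 share was 50.4 percent, in Sac/val prophylactic replicate 3, a library with 81 counts of Igkc. With Iglc2, Iglc3 and Iglc4 counted as well, Igkc made up 90.2 ± 4.68 percent in 129X1 and 86.2 ± 13.0 percent in B6 (permutation p = 0.246). In B6 vehicle prophylactic replicate 3 the share was then 83.6 percent, against 99.5 percent with Iglc1 alone. Jchain followed Igkc closely: the ratio of Jchain to Igkc per kilobase stayed between 0.0456 and 0.0970 in 129X1 and between 0.0391 and 0.149 in B6, with medians of 0.0716 and 0.0667. The ratio of Ighm to Igkc per kilobase varied far more, from 0.161 to 4.13 in 129X1 (median 0.596) and from 0.119 to 8.14 in B6 (median 0.569). In 129X1 the highest ratio was that of vehicle prophylactic replicate 1, with 615 counts of Ighm and 42 of Igkc. In B6 it was that of vehicle therapeutic replicate 1, with 2251 counts of Ighm and 78 of Igkc. Libraries poor in light chain thus still held Ighm. Rag1 was at 0.0939 CPM in that 129X1 library and at 0.984 CPM in that B6 library, and the ratio had medians of 0.563 in the 16 libraries with 10 CPM or more of Rag1 and 0.665 in the other 20. In B6 the 3 libraries highest in Ighm, at 819, 709 and 532 CPM, had 826, 1738 and 965 CPM of Rag1, the highest values of the strain; the part of thymic or developing lymphocytes in these Ighm counts was not tested.

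In no drug comparison was any of the 10 genes called, and the background was 0 percent of all tested genes in each. By edgeR the genes with an unadjusted p under 0.05 were 293 for Sac/val against vehicle, 453 for Val against vehicle and 491 for Sac/val against Val, of 18628 tested. Ighg1 had a median of 0.420 CPM over 12 Sac/val libraries (range 0 to 76.5), 0.937 CPM over 12 Val libraries (0 to 53.7) and 0.797 CPM over 12 vehicle libraries (0 to 525.8). All 3 ranges start at 0 and overlap, and the highest library is a vehicle one. The fitted mean over the 4 strain and regimen combinations was -4.28 for Sac/val against vehicle (95% interval -7.01 to -1.54, edgeR adjusted p = 1.000) and -3.24 for Val against vehicle (-5.81 to -0.68, adjusted p = 0.986). The comparisons share the vehicle libraries, among them the highest library of each strain, vehicle prophylactic replicate 2. On leaving out 1 library at a time the Ighg1 value ran from -5.14 to -1.56 for Sac/val and from -4.34 to -0.53 for Val.

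Of the other 9 genes, Ighg2b had the interval farthest from 0 for Sac/val (-1.94, 95% interval -3.83 to -0.04, edgeR adjusted p = 1.000). Its medians were 3.03 CPM under Sac/val, 3.34 CPM under Val and 6.72 CPM under vehicle. Igkc had medians of 46.6 CPM under Sac/val, 48.6 CPM under Val and 49.6 CPM under vehicle, with differences from vehicle of -1.15 (-2.82 to 0.52) for Sac/val and -0.83 (-2.49 to 0.84) for Val. Igha had medians of 16.4, 50.6 and 30.5 CPM in the order Sac/val, Val and vehicle, with differences from vehicle of -1.26 (-2.64 to 0.13) and -0.70 (-2.07 to 0.68). Iglc1 was the 1 gene with a value above 0 in both comparisons (0.43 and 0.62). Between Sac/val and Val, which differ by the neprilysin inhibitor and were given at different doses, the 10 differences lay between -1.03 and 0.11, and the median half-width of their 95% intervals was 1.69, so differences of a few fold in either direction lie within them. Within single combinations of strain and regimen, 12 comparisons gave 120 tests of these genes, of which 0 were called and 10 had an unadjusted p under 0.05 (edgeR). Over all tested genes the same comparisons gave 223536 tests, of which 0 were called. How many of all genes had an unadjusted p under 0.05 differed widely between these comparisons. The 10 genes also vary together, so their count is a description only. By treatment the Ighm share averaged 75.7 ± 15.6 percent under Sac/val, 65.2 ± 19.6 percent under Val and 67.0 ± 23.5 percent under vehicle (SD, n = 12 each). The Igha share averaged 12.9 ± 10.3, 23.3 ± 20.5 and 17.2 ± 15.4 percent, and the Ighg1 share 2.08 ± 3.40, 2.68 ± 5.34 and 5.00 ± 11.1 percent, in the same order. No heavy-chain share passed the threshold between either drug and vehicle (14 permutation tests, smallest adjusted p = 0.9749).

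**Figure D4:**
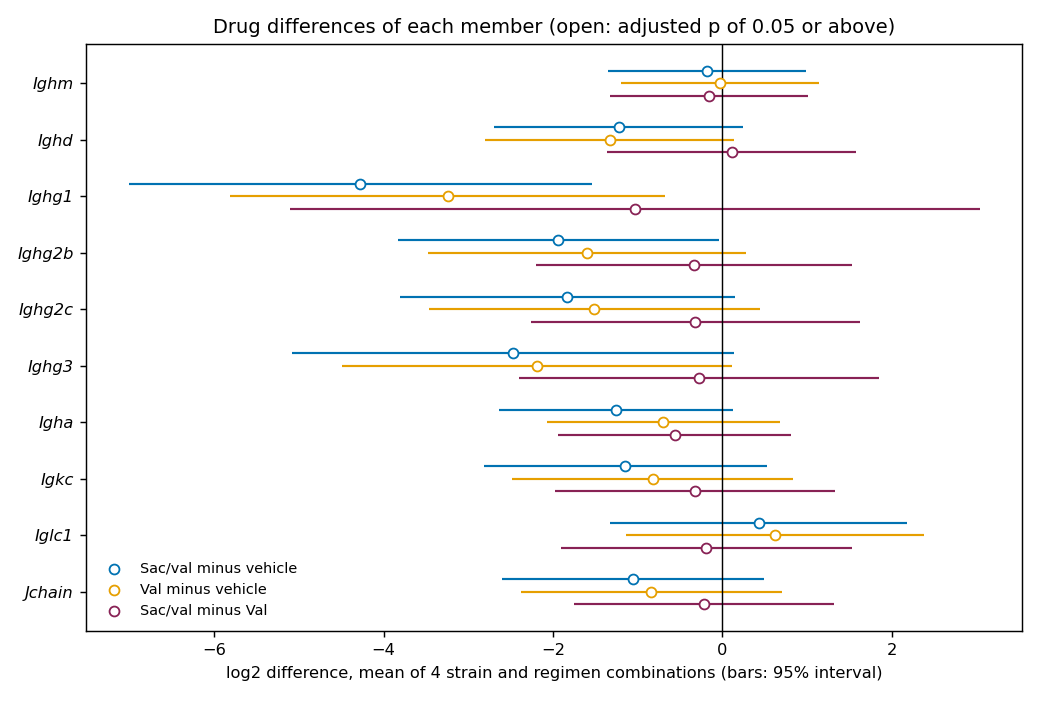
Log2 differences of the 10 genes for Sac/val against vehicle, Val against vehicle and Sac/val against Val (x axis; bars are 95% intervals, mean over 4 combinations of strain and regimen). All points are open, as 0 passed the threshold, and the widest interval, -7.01 to -1.54 among those against vehicle, belongs to Ighg1.

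Regimen and strain by drug effects gave the same outcome. For therapeutic against prophylactic dosing 0 genes were called (edgeR; 599 genes with an unadjusted p under 0.05). Igha had a median of 52.8 CPM in 18 therapeutic libraries (range 1.16 to 558) and 15.6 CPM in 18 prophylactic libraries (0.540 to 189), a log2 difference of 1.75 (SE 0.56, edgeR adjusted p = 1.000). Iglc1 had medians of 2.39 and 0.647 CPM (1.52, SE 0.70, adjusted p = 1.000). The tests of whether a drug difference depends on strain called 0 genes for Sac/val and 0 for Val (651 and 960 genes with an unadjusted p under 0.05). For Val the strain interaction was below 0 in 9 of 10 genes, with Iglc1 lowest (-4.70, SE 1.77, adjusted p = 0.633) and Ighd and Igha at -3.06 and -2.94. For Sac/val it was below 0 in 4 of 10 genes. Over all tested genes the median was -0.0148 for Val and 0.0132 for Sac/val. The 10 genes vary together, so the counts by direction are a description only. DESeq2 called 0 of the 10 genes in each of these comparisons, and between 2 and 21 genes in all.

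The genes varied together to different degrees across the 36 libraries. Igkc and Jchain were the closest of the pairs described here (Spearman rho 0.9748 of log2 CPM), followed by Igkc with Ighg2b (0.895). Igha and Ighg1 were little alike (0.131). Outside the immunoglobulin genes, Ighd was like the B cell surface genes Ms4a1 (rho 0.843) and Cd79a (0.818). Those most like Igkc were Mzb1, a chaperone of antibody secretion (0.905), the B cell coactivator Pou2af1 (0.855) and Cd79b (0.820), and Jchain was likewise most like Mzb1 (0.849), followed by the cytokine Il7 (0.844) and Pou2af1 (0.831). Ighg1 was most like Hepacam2 (0.822), the B cell scaffold Bank1 (0.784) and the phosphatidylserine receptor Timd4 (0.744). Ighg3 was most like Bank1 (0.7997), the IgM receptor Fcmr (0.794) and Pou2af1 (0.794). Ighg2b was like the T cell costimulator Icos (0.821) and Ltb (0.805), and Ighg2c like Cd37 (0.723) and H2-M2 (0.715). Ighm was most like no B cell gene but Zfp51 (0.847), Xlr4a (0.846) and Cwc22 (0.845), Igha most like Ptk7 (0.781), Wdr82 (0.757) and Dusp2 (0.756), and Iglc1 most like Tnfrsf18 (0.759), Taf4 (0.739) and Ltb (0.737). The libraries of both strains are pooled in these values, so strain differences enter them. All libraries share depth and tissue content, so these are descriptions only.

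Within a strain the genes were set against marker scores, the mean log2 CPM of a list, in 12 relations. Ighd followed the B cell score in the 14 libraries of 129X1 under 10 CPM of Cd79a (Pearson r 0.799, Spearman rho 0.785, permutation p = 0.00078 and 0.00142, adjusted 0.00117 and 0.00243) and in the 18 of B6 (r 0.867, rho 0.837, permutation p = 1e-05, the smallest possible, and 3e-05, adjusted 3e-05 and 9e-05). Without the 2 libraries farthest from the median score r was 0.803 and 0.733. Ighm followed that score in the same 14 libraries (r 0.763, rho 0.701, permutation p = 0.00181 and 0.00702, adjusted 0.00217 and 0.00936; r 0.612 without 2). In B6 the Ighm relation rested on 2 libraries (r 0.750, permutation p = 0.00119, adjusted 0.00159; rho 0.323, p = 0.190, adjusted 0.207; r 0.396 without them). Igkc followed the plasma cell score in the 14 libraries of 129X1 (r 0.824, rho 0.754, permutation p = 0.00032 and 0.00258, adjusted 0.000549 and 0.00387; r 0.653 without 2), but the relation was not detected in B6 (r 0.316, rho 0.323, permutation p = 0.2003 and 0.190, adjusted 0.2185 and 0.207; r 0.234 without 2). For Jchain the values were r 0.843 and rho 0.820 in the 14 libraries of 129X1 (permutation p = 0.0003 and 0.00056, adjusted 0.000549 and 0.00112; r 0.643 without 2), and r 0.184 and rho 0.228 in B6 (permutation p = 0.462 and 0.36, adjusted 0.462 and 0.36; r 0.128 without 2). Whether the relations differ between strains was not tested, and the plasma cell list holds genes such as Xbp1 and Sdc1 that other cells also express.

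**Figure D5:**
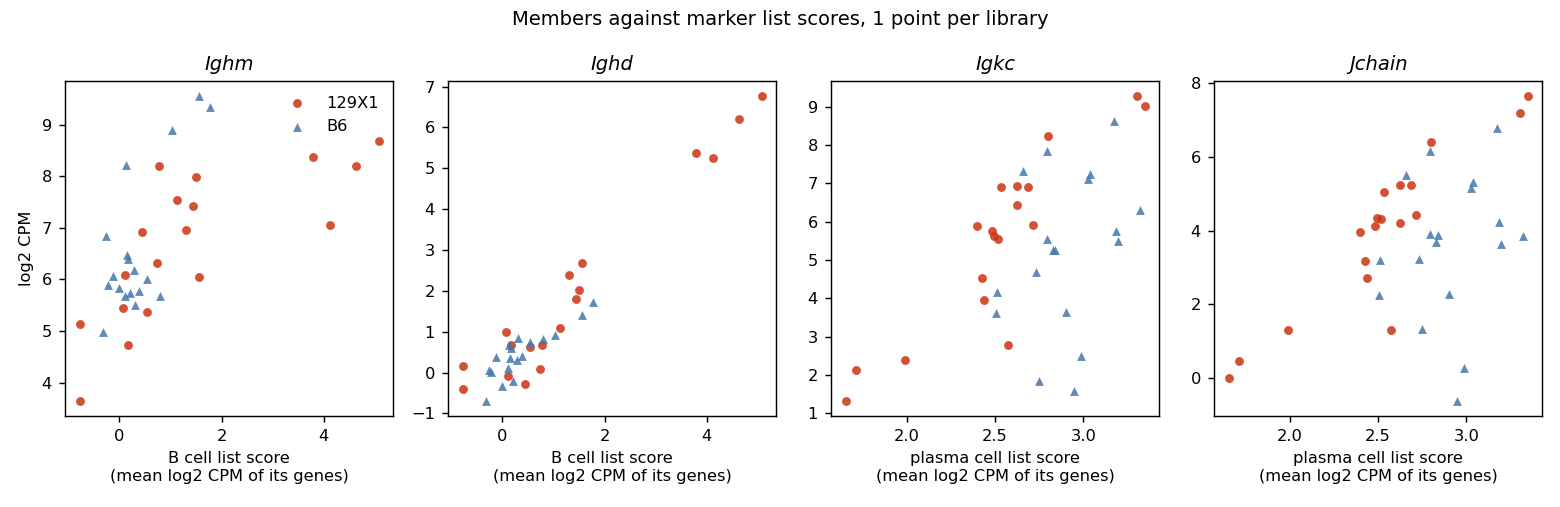
Log2 CPM of Ighm, Ighd, Igkc and Jchain (y axes) against the B cell or plasma cell list score of the same library (x axes), circles for 129X1 and triangles for B6. The 4 circles at the upper right of the Ighd panel are the libraries at or above 10 CPM of Cd79a, with 35.0 to 106 CPM of Ighd.

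Genes of B cell life around the 10 were read from 12 lists, with the strain comparison over all 36 libraries and edgeR calls over all genes. Of all 18628 tested genes in that comparison, 3044 were called higher and 3252 lower, together 33.8 percent. Without the 4 libraries rich in Cd79a, 5861 genes were called. A list with a similar share called is near this background. Of 16 B cell markers 12 were higher in 129X1 and 0 lower, with a median log2 difference of 2.27 against -0.02 over all genes. The complement receptor Cr2 (4.72, adjusted p = 0.000307) and the IgE receptor Fcer2a (3.33, adjusted p = 0.000178) led, before Ms4a1 (3.13) and Cd79a (2.83). Without the 4 libraries rich in Cd79a, 2 of the 16 were higher and 1 lower (median 0.12). Of 12 plasma cell genes 1 was higher, Irf4 (0.98), and 5 were lower, among them Slamf7 (-3.15), Prdm1 (-1.12) and Fkbp11 (-0.78); Irf4, Prdm1 and Slamf7 are also used by other leukocytes. The plasma cell counts were again 1 higher and 5 lower without the 4 libraries. Of 8 tested genes of other constant or surrogate chains 2 were higher, Ighe (5.02, SE 1.36, adjusted p = 0.00702) and Vpreb3 (1.30), against 0 higher and 1 lower of 7 tested without the 4 libraries.

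Most tested genes for receiving antibody and for sustaining plasma cells were lower in 129X1, against 3252 of all 18628 tested genes. Of 9 tested Fc receptors and transporters, 7 were lower and 0 higher (median -1.07): Fcgr1, the high-affinity IgG receptor (-2.40, SE 0.26), the IgG receptor Fcgr4 (-1.91), the IgE receptor subunit Fcer1a (-1.63) and the inhibitory Fcgr2b (-1.18) led. Without the 4 libraries rich in Cd79a 7 of 9 were lower. Of 8 macrophage markers, cells that also carry several of these receptors, 7 were lower, such as Aif1 (-1.37) and C1qa (-1.12), and 7 without the 4 libraries. Of 6 tested survival and switch cytokines 5 were lower and 0 higher, with Il6 (-3.11, SE 0.54), Il10 (-2.21, SE 0.38), the B cell survival factor Tnfsf13b (-1.03) and Tgfb1 (-0.44), and 5 were lower without the 4 libraries. Of 13 tested class switch and germinal centre genes 1 was higher and 5 were lower, Cd40 (-0.73), S1pr2 (-0.53), Batf (-0.54) and Cd86 (-0.54) among them, against 0 higher and 6 lower of 12 tested without the 4 libraries. Of 9 chemokine and homing genes of B cell zones, Cxcr5 (2.37) and Cxcl13 (1.13) were higher and Ccl19 (-1.55) lower, and without the 4 libraries 0 were higher and 3 lower. Of 10 thymocyte genes 3 were higher (Prss16, 3.52; Arpp21, 2.25; Cd1d1, 0.40) and 0 lower, and 0 were called without the 4 libraries, while Rag1 did not pass (2.19, SE 1.10, adjusted p = 0.129). Of 10 T and NK cell genes 1 was lower (Klrb1c, -1.50), of 8 smooth muscle genes 1 was higher (Des, 1.61) and 1 lower (Smtn, -0.55), and of 6 endothelial genes 1 was lower (Vwf, -0.40). In the same lists 1 T and NK cell gene was lower without the 4 libraries, 1 smooth muscle gene was higher and 2 lower, and 0 endothelial genes were called. For Sac/val and for Val against vehicle, 0 genes of any list were called, and the B cell list had medians of -1.36 and -0.69.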

How the data were processed

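RNA from ligated carotid arteries was made into libraries with a stranded mRNA kit. The deposited table holds the authors' raw counts per gene symbol; per the submitters' processing notes, Trimmomatic 0.36, STAR 2.5.2b and featureCounts of Subread 1.5.0p3 were used with GRCm38. The annotation release, strand setting and treatment of multi-mapping reads are not given in the sources used here. Libraries totalled 18.96 M to 28.97 M counts (median 22.78 M).

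Counts were tested with edgeR 4.0.16 in R 4.3.3: genes kept by filterByExpr (18628 of 49568), TMM scaling, a quasi-likelihood model with 1 mean for each of 12 groups (24 residual degrees of freedom), and Benjamini-Hochberg adjustment over all tested genes within a comparison at 0.05. The SE of an edgeR difference was its absolute size divided by the square root of the F value of its test. The 95% intervals used t with 24 degrees of freedom. Both are approximate, above all for genes with few counts. CPM values are counts per M library counts, and log2 CPM used a prior count of 2. Shares were tested with two-sided permutation tests (100000 resamples; exact over 924 splits for 6 against 6; scipy 1.17.1) in libraries with at least 100 heavy-chain counts, and exact binomial intervals are at 95 percent. They cover counting error only. The labels give 3 mice in each group, so p-values measure the spread between mice; litters and days of preparation are not given. The fit was tested on simulated data.

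All 10 members were described in each comparison. From each of 12 lists (124 genes), up to 4 genes with the smallest p between strains were named, plus Rag1, and for each member the 3 most correlated genes outside the immunoglobulin loci with a mean of at least 1 CPM; marker genes of the library check are named besides. Some of the genes this rule names are not reported here. Members and lists were chosen with earlier results of these data known. Alternatives were DESeq2 1.42.0, its size factors, no filter, marker scores as covariates, subsets of libraries, each library left out, and other share definitions. Leaving out the 4 libraries rich in Cd79a, the shortest transcript as length, IgG leads without those 4, and the comparisons within a treatment or regimen were added after the data were seen.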

Additional observations from a re-analysis of the deposited data

Results flagged for a closer look

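In 60 sets of 6 libraries (10 genes, each strain and treatment), 4 single libraries stood apart by Dixon's test, which chance does in about 1 of 20 sets. Ighg2b was low in 129X1 Sac/val prophylactic replicate 3, at 0.0825 CPM. Ighd was high in 129X1 Val prophylactic replicate 3, at 35.0 CPM, the library that also had 15.4 CPM of Cd79a. Ighg3 was high in B6 Sac/val prophylactic replicate 1, at 0.246 CPM, a value that rests on 6 counts. Ighm was high in B6 vehicle therapeutic replicate 2, at 819 CPM, where Rag1 was at 826 CPM; the part of Rag1-bearing cells in this value was not tested.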

How the results depend on the processing

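Between strains 3 genes were called, and 5 with the B cell score, 1 with the B cell and plasma cell scores, 2 with the thymocyte score (Ighg3 was lost, 2.06, adjusted p = 0.120), and 1 without the 4 libraries rich in Cd79a. Under vehicle 1 was called, and 3 by DESeq2 (Ighd, Ighg1 and Iglc1), and 0 with the B cell score, 0 with both scores, 0 without the Cd79a-rich libraries and 0 with only the libraries compared in the fit. In the drug, regimen and interaction comparisons 0 were called under each alternative run. Of all genes, 6296 were called between strains. With the B cell score 5848 were called, with both scores 1328, with the thymocyte score 7192 and without the Cd79a-rich libraries 5861. Under vehicle 2522 were called, against 606 with both scores and 715 without libraries of 10 CPM or more of Rag1. On leaving out 1 library the vehicle count ran from 1438 to 2844.

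Of the log2 differences between 129X1 and B6, the sign turned with the B cell score for Ighg2b (-1.24), Ighg2c (-1.90), Ighg3 (-0.12), Igkc (-1.39), Iglc1 (-1.08) and Jchain (-1.16). With both scores these 6 were -1.40, -0.96, -0.24, -0.59, -0.69 and -0.77 in that order. With the thymocyte score Ighg2b (-0.32), Ighg2c (-0.46), Igkc (-0.25), Iglc1 (-0.39) and Jchain (-0.072) turned, and without the Cd79a-rich libraries the same 5 were -0.81, -1.65, -1.09, -0.87 and -0.86. On leaving out 1 library at a time, Ighm ran from -0.23 to 0.34, Ighg2b from -0.16 to 1.11, Ighg2c from -0.57 to 0.95, Iglc1 from -0.24 to 1.01, Ighg3 from 2.31 to 4.24, Ighd from 1.995 to 2.92 and Ighg1 from 4.54 to 7.69. The count of genes called ran from 2 to 3 for the strains and from 0 to 2 under vehicle.

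Of the differences in share, in percentage points, Ighg1 passed with a minimum of 1000 heavy-chain counts (5.56, permutation adjusted p = 0.0289) and with the shortest transcript as length (6.71, adjusted p = 0.0392), while Ighm turned to -2.92 and -0.977. The Ighg1 difference was 1.35 (adjusted p = 0.474) without the Cd79a-rich libraries and 2.63 (adjusted p = 0.269) without libraries of 10 CPM or more of Rag1, against 4.83 with all. Without libraries of 10 CPM or more of Rag1, Ighg2b was -0.633. In vehicle libraries alone Ighd was 3.05 and did not pass, Ighg2b was -1.90 and Ighg3 -0.0112. On leaving out 1 library Ighm ran from -2.37 to 2.22, Ighg2b from -0.0237 to 0.732, Ighg2c from -1.39 to 0.359 and Ighg1 from 2.93 to 5.55, with 13 of 36 past the threshold. The causes were not tested.

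Limits: many B6 libraries hold 3 or fewer counts of Ighg1 and Ighg3, so depth limits those folds, and strain and the match of its haplotype to the reference genome cannot be told apart. The strain comparison over 6 combinations, Val against vehicle, Sac/val against Val and the regimens could not be fitted without libraries of 10 CPM or more of Rag1, since 129X1 Val therapeutic has no other. The fit of only the libraries compared was run for the vehicle strain comparison and the 3 drug comparisons. No paired analysis was possible because the replicate numbers follow the order of listing and the labels pair no animals across groups.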
